A study of Mus musculus with 6 samples.

Results

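Lect2 encodes leukocyte cell-derived chemotaxin 2, a small secreted protein. It was chosen by its gene symbol, with its transgenic against control values in view, and is 1 of 18193 genes named by the array annotation. Of the 45101 probe sets, each a set of short oligonucleotides read together, 1 carries the symbol (1449492_a_at), so no further measurement of the gene could be set beside it. Expression was measured on 6 Affymetrix arrays of total RNA from colon tumours of CBA/C57BL/6 mice. The 3 transgenic arrays hold tumours of mice that carry human IL8, a neutrophil-attracting chemokine with no direct mouse counterpart, and the 3 control arrays hold tumours of wild type mice. All animals are labelled male and shared the same housing. The sources used here give no promoter for the transgene, no age and no account of how the tumours arose, nor do they state whether tumours or animals were pooled. The p-values below therefore measure only the spread between these samples. All values below are on the log2 scale, as deposited after GCRMA, a background correction and normalization of probe brightness.

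LECT2 was first isolated as a factor that attracts neutrophils, and the liver is its main known source. In mouse liver Lect2 is a target of beta-catenin, the transcriptional partner of TCF and LEF proteins in the Wnt pathway, and this pathway is activated in most colon tumours. The secreted protein is known to bind the HGF receptor Met, the endothelial receptor Tie1 and, on mouse macrophages, the lectin Cd209a. In humans the protein can also form amyloid.

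The sequence before the start of Lect2 is shown because beta-catenin acts through short TCF and LEF motifs, and the comparison below sets Lect2 beside other beta-catenin targets. The 250 bases upstream of the RefSeq start, on the minus strand of GRCm38.p6 at chr13:56548539-56548788, were searched on both strands for the motif ATCAAAG, or for its close relative TTCAAAG, which read on the other strand as CTTTGAT, or for the relative, CTTTGAA. They hold 1 match, ATCAAAG, which lies 32 to 26 bases upstream of the start and is in capitals.
Lect2: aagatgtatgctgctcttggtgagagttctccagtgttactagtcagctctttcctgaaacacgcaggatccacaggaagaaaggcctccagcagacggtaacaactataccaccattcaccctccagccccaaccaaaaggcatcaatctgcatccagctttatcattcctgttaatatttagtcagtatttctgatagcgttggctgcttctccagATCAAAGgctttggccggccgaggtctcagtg

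Of 32851 such 250-base windows in the RefSeq promoter table, 7.48% hold at least 1 of these motifs. Counted by gene, as for the lists below, 8.63% of 27025 genes hold a match, so a match is not rare. Among the intestinal beta-catenin targets listed for the comparison, 17 had an entry and 3 held a match, and among hepatic beta-catenin targets 9 had an entry and 3 held one. The intestinal ones are Sp5 (plus strand, chr2:70474809-70474835), a transcription factor that dampens Wnt output, Tnfrsf19 (minus strand, chr14:61038173-61038199), a receptor of intestinal stem cells, and Mmp7 (plus strand, chr9:7692091-7692110), a secreted protease. The match and its flanks are shown for each, again with the motif in capitals.
Sp5: gcaaggccccCTTTGATcaggaaaatc
Tnfrsf19: tgaatgggggATCAAAGtgacaaacta
Mmp7: aacATCAAAGtagctctgag

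These matches describe letters in a window and were not tested as binding sites.

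Lect2 was at 4.998, 3.12 and 6.35 on transgenic arrays 1, 2 and 3, against 8.19, 8.50 and 9.58 on control arrays 1, 2 and 3. Every transgenic array lay below every control array, and a gap of 1.84 separated the highest transgenic from the lowest control value. The mean was 4.82 ± 1.62 in transgenic tumours and 8.76 ± 0.73 in control tumours (SD, n = 3 each), a difference of -3.93 on the log2 scale. Lect2 was chosen for this contrast, so the difference is a description and carries no test. Among 10289 genes measured above background it had the third-lowest difference. Transgenic array 2 lay under 4, the level used as background, and with it set to 4 the difference was -3.64. In tissue RNA, fewer cells that make Lect2 and less Lect2 RNA per cell cannot be told apart.

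**Figure D1:**
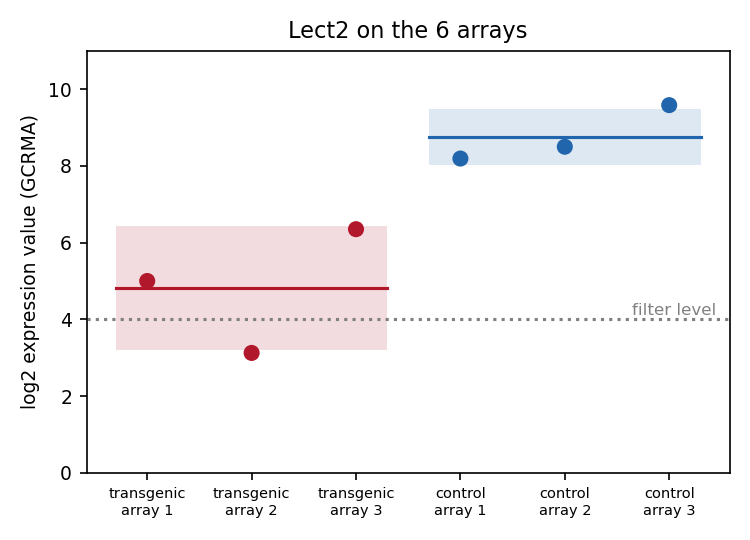
The log2 expression value of Lect2 is plotted for each array (points), with the group mean (line) and 1 SD on either side (shading); the dotted line is the background level of 4. The 3 transgenic arrays lie between 3.12 and 6.35, all under the 3 control arrays at 8.19 to 9.58, and transgenic array 2 lies under the dotted line.

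The transgenic tumours also differed among themselves. Their Lect2 values spanned 3.23 log2 units, and the control values spanned 1.39. The SD of 1.62 in transgenic tumours stood beside a median SD of 0.301 over all genes tested, and 2.49% of genes had a larger one. In control tumours the SD of 0.73 stood beside a median of 0.190, and 3.72% of genes had a larger one. Leaving out each array in turn gave differences from -4.70 to -3.08, the first with transgenic array 3 absent and the last with transgenic array 2 absent.

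Several properties of the arrays bear on all comparisons. Xist, the RNA of the inactive X chromosome, was at 12.27 to 12.89 on the transgenic arrays and at 2.33 to 2.64 on the control arrays, although all animals are labelled male. Uty, Kdm5d and Eif2s3y, which lie on the Y chromosome, were at 2.71 or less on every transgenic array and at 5.48 or more on every control array. The arrays therefore go against the sex label in the transgenic group, and genotype and this sex difference cannot be told apart. Transgenic array 2 carried genes of stratified squamous epithelium: Krtdap was at 12.31 there, against 2.62 or less on the other arrays, Krt5 at 10.27 against 2.86 or less and Trp63 at 8.97 against 2.29 or less. Intestinal epithelium markers were high on every array, among them Epcam at 13.82 or more and Krt8 at 13.58 or more. In the fit across all probe sets (limma), 11 of 19310 had an adjusted p under 0.05, which is 0.057%. The 4 measured genes of the sex chromosome list were the only list genes among these 11. An unadjusted p under 0.05 was found for 1063 of the 19310.

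The partner list held genes of proteins that LECT2 binds and of partners of those proteins. The 2 of them measured above background showed no difference past the threshold. Met, the receptor tyrosine kinase for HGF, was at 10.64, 10.41 and 10.30 in IL8 transgenic tumours, against 10.54, 10.31 and 10.08 in wild type tumours. The groups overlapped for Met, with a difference of 0.14 ± 0.185 (SE, limma adjusted p = 0.877). Tek, the endothelial partner of Tie1, was at 3.996, 4.22 and 4.38, against 5.43, 3.79 and 4.19, and overlapped too. Tie1, Cd209a and the Met ligand gene Hgf stayed under 4 on every array, with highest values of 3.15, 2.11 and 3.92. Of the 5 genes on the list, 2 were thus measured above background, and of these only Met encodes a protein named above as bound by LECT2.

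Markers of hepatocytes, the main known source of Lect2, were largely at background. Of 13 hepatocyte genes with a probe set, 8 were under 4 on every array, among them Apoa1 at 2.72 or less, Ahsg at 2.66 or less and Fga at 1.88 or less. Ttr, a thyroxine carrier, was at 11.38, 11.60 and 11.22 in transgenic tumours and at 10.86, 10.996 and 11.75 in control tumours, with overlapping groups. Alb, the serum albumin gene, was at 10.93, 2.97 and 8.26 in IL8 transgenic tumours, against 8.97, 9.91 and 11.09 in wild type tumours. Apob, the last of the 3 hepatocyte genes that passed the filter, was at 5.15, 6.15 and 7.82, against 8.52, 6.72 and 4.22. Cps1 did not pass but reached 8.16 on transgenic array 2, against 2.27 or less on the control arrays. Alb and Lect2 were both lowest on transgenic array 2, but on transgenic array 1 Alb lay within its control range while Lect2 minus its control mean was -3.76.

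Beta-catenin target genes of the intestine were compared with Lect2 next. Of 25 measured members of this list, 24 passed the filter on low values, and 22 of these were lower in transgenic tumours, against 53.8% of all genes tested. The median difference was -0.83, beside -0.025 over all genes tested. None passed the test (limma adjusted p 0.806 to 0.893). At the brightest probe set per gene the groups did not overlap, with transgenic tumours lower, for 4 of the 24. These were Apcdd1, Lef1, Tnfrsf19 and Smoc2, and the share over all genes was 6.75%. The list rested on transgenic array 2, on which 21 of 24 members had their lowest value. Without that array 18 of 24 were lower and the median was -0.18.

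Taken array by array and relative to the control mean, the list had medians of -0.06, -2.36 and -0.26 on transgenic arrays 1, 2 and 3. Lect2 lay at -3.76, -5.63 and -2.41 on the same arrays. Axin2, a scaffold of the beta-catenin destruction complex, was at 11.27, 7.94 and 10.80 in IL8 transgenic tumours, against 10.90, 11.42 and 11.15 in wild type tumours. Nkd1, an inhibitor of Dishevelled, was at 11.18, 6.15 and 11.10, against 10.73, 11.18 and 11.14. Both lay within or close to the control range on transgenic arrays 1 and 3, where Lect2 was below all controls.

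Notum, a secreted enzyme that inactivates Wnt ligands, was at 9.76, 3.97 and 9.23 in IL8 transgenic tumours, against 9.06, 10.003 and 9.89 in wild type tumours. Sp5 was at 9.91, 4.05 and 8.93, against 9.22, 9.53 and 9.79. For both, the low value stood on transgenic array 2. The ligase gene Rnf43, which removes Wnt receptors, was at 10.33, 8.36 and 9.90, against 9.88, 10.36 and 10.24.

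Wif1, a secreted Wnt inhibitor, was at 11.29, 8.02 and 11.68, against 11.72, 11.61 and 12.21.

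Apcdd1, a membrane inhibitor of Wnt signalling, was at 9.83, 8.68 and 10.99 in IL8 transgenic tumours, against 11.13, 11.64 and 11.71 in wild type tumours. Its 6 arrays stood in the same order as those of Lect2, and its difference was -1.66, or -1.09 without transgenic array 2. All 6 kept probe sets of Apcdd1 were lower, with differences of -2.57 to -1.298. The groups overlapped at some of them, for example with 6.94 on transgenic array 3 and 6.88 on control array 1. Lef1, a transcription factor that binds beta-catenin, was at 7.13, 3.27 and 7.94, against 8.19, 8.55 and 8.25. Smoc2, a matrix protein of intestinal stem cells, was at 10.28, 9.71 and 10.30, against 10.48, 10.65 and 10.81, and Tnfrsf19 at 9.17, 5.92 and 10.07, against 10.09, 10.31 and 10.55. At the other kept probe set of Smoc2 (r = 0.79) the groups overlapped, with 7.43 on transgenic array 1 and 7.15 on control array 1.

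Lgr5, a receptor that amplifies Wnt signals, was at 9.87, 8.80 and 9.54 in IL8 transgenic tumours, against 9.82, 9.98 and 10.44 in wild type tumours, and the groups overlapped. Ascl2, a transcription factor of these cells, was at 7.81, 6.63 and 8.54, against 8.18, 8.74 and 8.39. Myc, Cd44 and Ccnd1, targets with many other inputs, differed by 0.16, 0.27 and -0.29, with overlapping groups.

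**Figure D2:**
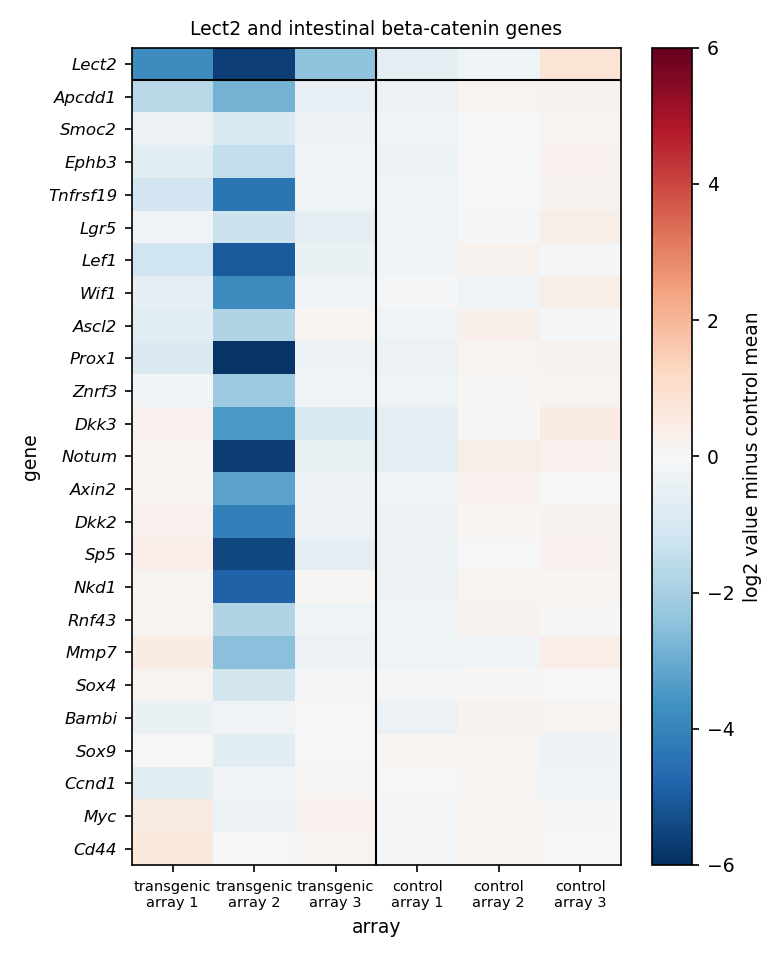
Each cell gives the log2 value minus the control mean of that gene (colour scale from -6, blue, to 6, red), for Lect2 in the top line and 24 intestinal beta-catenin genes below it, ordered by their correlation with Lect2, on the 3 transgenic arrays (left) and the 3 control arrays (right). Most genes are blue only on transgenic array 2, whereas Lect2, at -3.76, -5.63 and -2.41, is blue on all 3 transgenic arrays.

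The likeness of 2 expression patterns was measured as Pearson's r over the 6 arrays. These r values are descriptions with no p, because the arrays share the genotype split, the sex difference and the squamous signal of transgenic array 2, any of which gives a high r. For the 24 beta-catenin genes the median r with Lect2 was 0.75, beside 0.087 over all genes tested. Without transgenic array 2 the medians were 0.42 and 0.109. Over those 5 arrays r was 0.11 for Axin2, -0.20 for Nkd1, 0.22 for Notum and 0.028 for Sp5. It was 0.65 for Znrf3, a ligase gene related to Rnf43, and 0.84 for Wif1. It was 0.93 for Apcdd1, 0.93 for Smoc2, 0.92 for Ephb3, 0.92 for Tnfrsf19 and 0.87 for Lef1. Ephb3 encodes a receptor that positions cells along the crypt. For Nkd1 the -0.20 is that of its brightest probe set. Its 3 kept probe sets disagreed, with r from 0.39 to 0.86 over all 6 arrays.

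Beta-catenin targets of the liver and the pathway itself gave the following values. Of 12 hepatic targets, 6 passed the filter, of which 5 were lower, with a median difference of -0.15. That median was -0.38 without transgenic array 3, -0.33 without transgenic array 2, -0.31 without control array 2 and -0.028 without control array 3. Glul, glutamine synthetase, which marks beta-catenin activity around the central vein of the liver, was at 12.33, 12.06 and 12.16 in IL8 transgenic tumours, against 12.56, 12.62 and 12.68 in wild type tumours. The groups did not overlap for Glul, and its difference was -0.44 ± 0.145 (SE, limma adjusted p = 0.806). The hepatic targets Oat, an aminotransferase gene, and Tbx3, a transcription factor gene, differed by -0.20 and -2.11. Tbx3 stood at 5.2 on transgenic array 2, against 10.26 or more on the other arrays.

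Among 18 pathway components, 15 passed the filter, 8 lower and 7 higher, with a median difference of -0.014 and none past the threshold. Ctnnb1, beta-catenin itself, was at 13.79, 13.56 and 13.78 in IL8 transgenic tumours, against 13.79, 13.86 and 13.78 in wild type tumours. Apc, which targets beta-catenin for destruction, differed by 0.24 and Tcf7l2, its main DNA-binding partner in the gut, by 0.11, with overlapping groups. Tcf7l1, a family member that mostly represses, was at 8.25, 9.85 and 8.32 in IL8 transgenic tumours, against 8.26, 7.15 and 6.58 in wild type tumours. The groups of Tcf7l1 overlapped, and its order over the arrays was nearly the reverse of that of Lect2 (r = -0.91). Without transgenic array 2, where Tcf7l1 was highest, r was -0.78.

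The well-expressed genes whose pattern was most like that of Lect2 were then ranked. A gene counted as well-expressed with a mean log2 value of at least 6 over the 6 arrays and a range of at least 1, which 2408 genes met. Of these, 157 had an r of at least 0.9 and 84 an r of -0.9 or less. The 12 with the highest r were Srpx2, Tuba1a, Prkar1b, Grk5, 4921524J17Rik, 2510009E07Rik, Pea15a, Gstm5, Ptn, Atp13a2, Tmem176a and Tmem176b, with r between 0.97 and 1.00 and Spearman's rho of 0.94 or more. The r of deviations from the group means, which takes out the difference between genotypes, was 0.90 to 1.00 for them. Without transgenic array 2 and control array 3, the arrays farthest from the median of Lect2, r over the remaining 4 was 0.91 to 1.00. Both ranges were largely fixed by choosing these genes for a high r over the same 6 arrays. At the brightest probe set per gene the groups did not overlap for any of the 12, beside 6.75% of all genes. Genes chosen for an r this close to Lect2 largely had to separate the groups as it does. None of the 12 passed the test (limma adjusted p = 0.806 for each).

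Srpx2, a secreted protein of the sushi-repeat family, came first (r = 1.00). It was at 5.71, 5.32 and 6.18 in IL8 transgenic tumours, against 6.63, 6.79 and 7.004 in wild type tumours. Ptn, the growth factor pleiotrophin, had the widest range of the 12 and was at 9.87, 8.99 and 10.72, against 10.82, 11.22 and 11.52. Pea15a, which binds the kinase ERK, was at 8.41, 8.01 and 8.85, against 9.07, 9.21 and 9.72. In all 3 the order of the 6 arrays was that of Lect2, with transgenic array 2 lowest and control array 3 highest.

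Grk5, a kinase of G protein-coupled receptors, was at 6.00, 5.75 and 6.24 in IL8 transgenic tumours, against 6.56, 6.77 and 6.88 in wild type tumours. Tmem176a and Tmem176b, neighbouring genes for membrane proteins of antigen-presenting cells, differed by -0.79 and -0.92. They share 1 copy of the searched motif upstream of both starts, at chr6:48841292-48841318 of GRCm38.p6, shown on the plus strand for Tmem176a with the motif in capitals.
Tmem176a: gcactgtgcaATCAAAGgattccacag

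The probe set of Tuba1a, an alpha tubulin gene with near-identical relatives, and that of Prkar1b, a regulatory subunit of protein kinase A, are of a kind that can bind related transcripts, so their gene is uncertain. The 12 genes moved far less than Lect2. Their ranges over the arrays were 1.02 to 2.53 log2 units, against 6.46 for Lect2. The measure ranks shape and not size.

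The 6 genes with the lowest r were Inafm1, Tef, Mctp2, S100a8, Pde7a and Zc2hc1a, with r between -0.99 and -0.97. At the brightest probe set per gene all were higher on every transgenic array than on every control array (4.77% of all genes). Their choice by r again largely fixed this. Tef, a transcription factor of the circadian output, was at 8.64, 9.16 and 8.41 in IL8 transgenic tumours, against 8.15, 8.14 and 8.02 in wild type tumours. Mctp2, which encodes a membrane protein with C2 domains, differed by 1.53 and Pde7a, a phosphodiesterase gene, by 0.51. For Zc2hc1a the 3 kept probe sets gave r from -0.97 to -0.52, and for Pde7a the 7 kept gave r from -0.97 to -0.61.

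**Figure D3:**
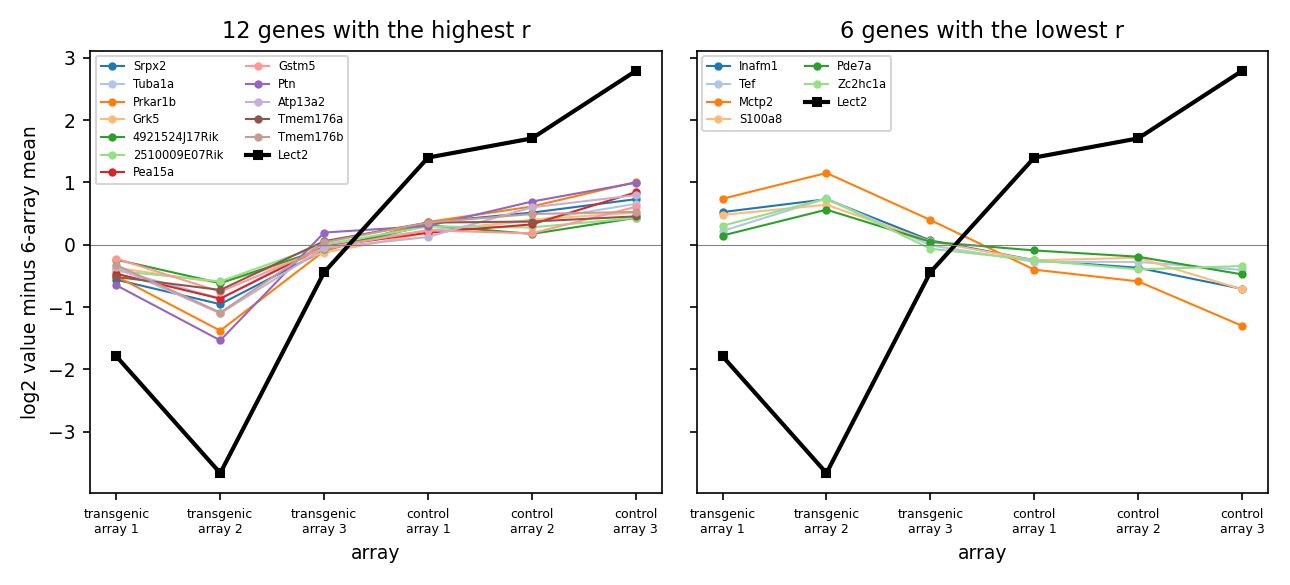
The log2 value minus each gene's mean over the 6 arrays is plotted for the 12 genes with the highest r (left panel) and the 6 with the lowest r (right panel), with Lect2 in black; lines join values of 1 gene and imply no order of the arrays. The 12 genes rank the arrays much as Lect2 does over a narrower range (1.02 to 2.53, against 6.46 log2 units), and the 6 genes run opposite to it.

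Neutrophil genes were set beside Lect2 because its protein attracts these cells, as does human IL8. S100a8, a subunit of calprotectin and 1 of the 6 genes above, was at 11.56, 11.72 and 11.13 in IL8 transgenic tumours, against 10.83, 10.87 and 10.36 in wild type tumours. S100a9, the other subunit, was at 11.39, 11.81 and 10.85, against 10.17, 10.78 and 10.05 (r = -0.94). Within the transgenic group both were highest on array 2, where Lect2 was lowest, and lowest on array 3, where Lect2 was highest. For S100a8 this order, and the r given below, were largely fixed by its choice for a low r. Both genes can also be made by epithelial cells, and the squamous genes were high on the same array 2. Without transgenic array 2 the differences of S100a8 and S100a9 were 0.66 and 0.79, with r of -0.97 and -0.88. Which cells made them was not tested.

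Other neutrophil genes gave no common pattern. Of 16 measured, 8 passed the filter, 5 higher and 3 lower in transgenic tumours, with a median difference of 0.25 and a median r of 0.014. Without transgenic array 2 these medians were 0.66 and -0.55, and 2 of the 8 were lower. The groups did not overlap, with transgenic tumours higher, for 2 of the 8, S100a8 and S100a9, where the share over all genes was 4.77%, and with transgenic tumours lower for Mmp9. Ltf, the granule protein lactoferrin, had r = -0.88 and Lcn2, an iron-trapping protein also made by epithelium, r = 0.73. Without transgenic array 2, where Ltf was at 10.27 and Lcn2 at 6.49, these r were -0.74 and 0.060. The defining receptor gene Cxcr2 was at 3.09 or less and Elane, neutrophil elastase, at 2.58 or less on every array, while Csf3r reached 4 on control array 2 alone, at 4.46.

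Most macrophage genes had patterns close to that of Lect2. Of the 11 measured genes of the monocyte and macrophage list, all passed the filter, and 6 had an r of at least 0.9 with Lect2, against 3.58% of all genes tested. The median r was 0.92, and 0.87 without transgenic array 2. Of the 11, 10 were lower in transgenic tumours, with a median difference of -1.06, or -0.64 without transgenic array 2. Csf1r, the receptor for the macrophage growth factor, was at 10.11, 8.96 and 10.19 in IL8 transgenic tumours, against 10.58, 11.02 and 10.72 in wild type tumours. C1qc, a complement subunit made by macrophages, was at 5.71, 3.84 and 6.34, against 6.39, 7.11 and 7.31. The groups did not overlap, with transgenic tumours lower, for 6 of the 11 (6.75% of all genes), namely Csf1r, Aif1, Mrc1, Cx3cr1, C1qc and Lyz2, and none of the 11 passed the test (limma adjusted p 0.769 to 0.845).

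By array, the macrophage list minus the control mean was -0.83, -2.21 and -0.45 on transgenic arrays 1, 2 and 3, the same order as Lect2. Its defining genes Cd68 and Adgre1 had r of 0.74 and 0.88. Cd68 was at 6.60, 4.18 and 5.66 in IL8 transgenic tumours, against 5.78, 6.41 and 7.02 in wild type tumours, and Cd14 had r = -0.39. The squamous list moved the other way on 1 array. All 7 of its members that passed the filter were highest on transgenic array 2, and its median r was -0.67, or -0.092 without that array. The part of these cell types in the Lect2 values was not tested.

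**Figure D4:**
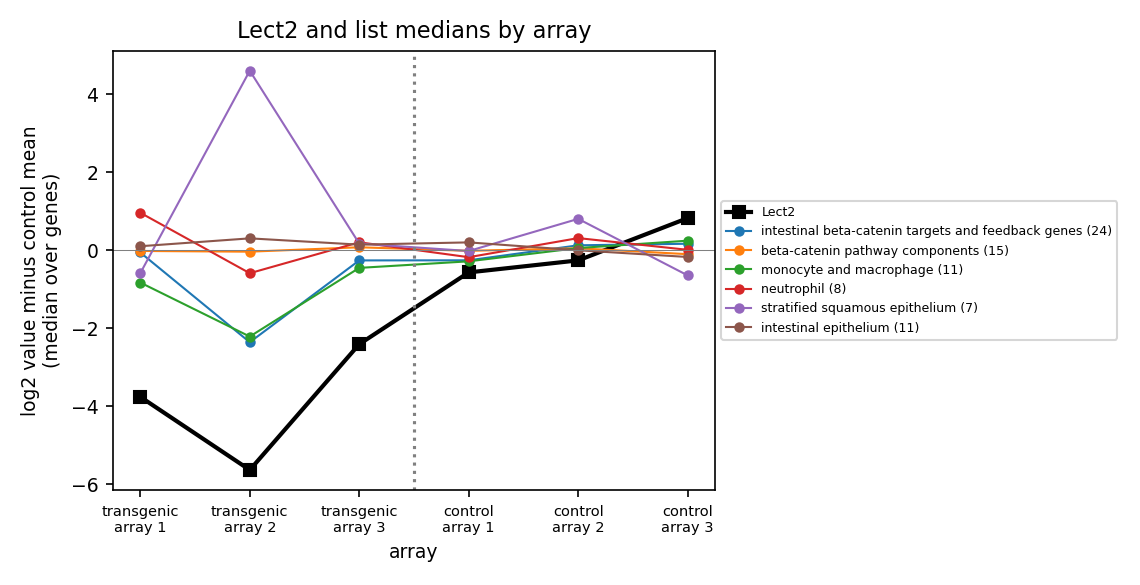
The log2 value minus the control mean is plotted by array for Lect2 (black) and as the median over the genes of 6 lists (colours, number of genes in brackets); lines join values of 1 list and imply no order. On transgenic array 2 the squamous list stands at 4.61 while Lect2 is at -5.63, and on transgenic array 1 the intestinal beta-catenin list is at -0.06 while Lect2 is at -3.76.

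**Figure D5:**
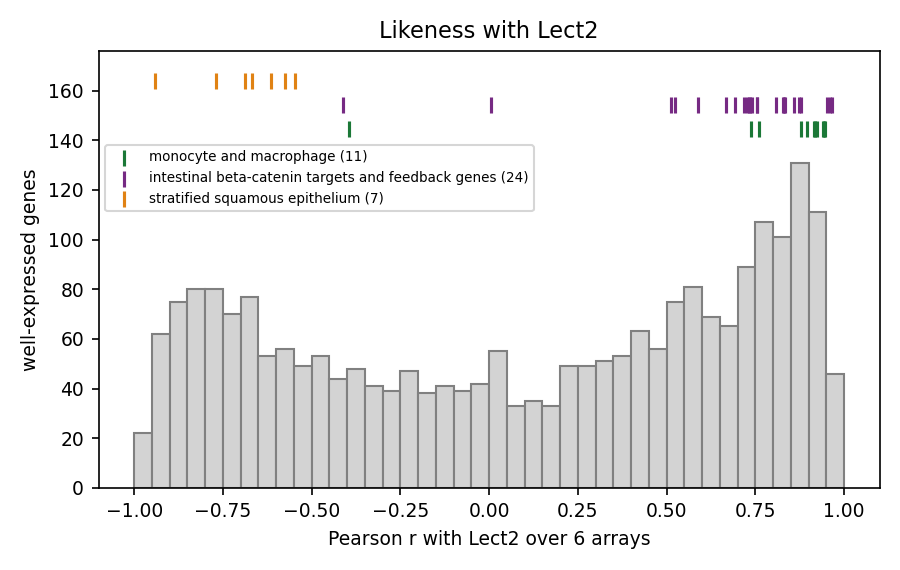
The grey bars count 2408 well-expressed genes by their Pearson r with Lect2 over the 6 arrays, and coloured ticks above mark the genes of 3 lists that passed the filter. The macrophage ticks gather near 0.92, their median, the beta-catenin ticks near 0.75 and the squamous ticks near -0.67.

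Genes next to Lect2 on chromosome 13 were examined as well. In the RefSeq table of GRCm38.p6 the entry of Fbxl21, an F-box protein gene, overlaps that of Lect2. Fbxl21 was at 2.86 or less on every array, and the next genes on that side, Il9 and Slc25a48, were at 2.39 or less and 2.91 or less. On the other side, Tgfbi, a matrix protein induced by TGF-beta, was at 11.42, 11.25 and 11.60 in IL8 transgenic tumours, against 11.81, 11.96 and 11.99 in wild type tumours. Its order over the arrays was that of Lect2 (r = 0.99, rho = 1.00), and its range of 0.73 kept it out of the ranking above. All 4 probe sets of Tgfbi were lower, with differences of -0.59 to -0.33 and r from 0.85 to 0.99. Smad5, a mediator of BMP signals, differed by -0.17 with r = 0.91 at its brightest probe set. At the other kept probe sets it differed by -0.21 with r = 0.82 and by -0.32 with r = 0.43.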

How the data were processed

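The deposited values are log2 expression values per probe set, made by the authors with GCRMA, per the submitters' processing notes. No version of GCRMA is stated in the labels. That the scale is log2 follows from the range of the values, and array medians were 3.31 to 3.36. GCRMA shrinks dim probe sets towards background, so values under 4 have little order. Gene symbols came from the platform annotation, updated through RefSeq (GRCm38.p6), which changed 0 symbols. With 3 arrays in each group, their number limits the precision.

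A probe set was tested with a log2 value of at least 4 on at least 3 of 6 arrays, with 64 control probe sets left out. Transgenic and control arrays were set against each other in limma 3.58.1 (R 4.3.3), with Benjamini-Hochberg adjustment over 19310 probe sets. Lists use the brightest probe set per gene. The procedures were tested on simulated data.

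Lect2 and all lists were chosen with earlier results of these data known. Named were Lect2, its partners, the 12 genes with the highest and 6 with the lowest r, 3 neighbouring genes per side and set list members. Znrf3, Ephb3, Smoc2, Tnfrsf19, Tcf7l1, C1qc, Aif1, Mrc1, Cx3cr1, Lyz2, Cd14, Mmp7, Mmp9, Pdgfra, Col1a2, Col3a1, Ahsg, Fga, Elane and the genes ranked by distance were named after their values were seen. Tcf7, Ephb2, Trf and the neighbour Gm45623 were not analysed here. Alternatives were other normalizations, filters, variance settings, likeness measures and leaving out arrays.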

Additional observations from a re-analysis of the deposited data

How the results depend on the processing

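The Lect2 difference of -3.93 kept its direction in every setting run, from -4.70 to -3.08 with 1 array left out and -3.01 with array quality weights. Lect2 was chosen for this contrast and its groups do not overlap, so leaving out 1 array could not reverse the direction. The count of 11 probe sets past the threshold ran from 8 to 12 over all settings. The deviations of same-numbered arrays from their group means had correlations of -0.27, -0.28 and -0.051. With 3 arrays per group the deviations are tied to each other, so these values cannot decide whether the numbers pair the arrays. The labels do not say either. With the replicate number as a block (a replicate block) 8 probe sets passed. The block left the Lect2 difference at -3.93 by construction, since each number holds 1 transgenic and 1 control array. Which genes were most like Lect2 depended on the setting. Of the 18 named, 11 remained with values under 4 set to 4 and 11 with no minimum on the range, 4 by the r of deviations from the group means, 5 without the 2 arrays farthest from the median and 5 to 9 with 1 array left out. By Spearman's rho 4 remained, but with 6 arrays 67 genes tied at a rho of 1 and 19 at -1, among them 9 of the 12 and 4 of the 6 named, so that this count reflects the order of ties. All 18 kept the sign of r in each of these settings, and with 1 array left out they stayed among the first or last 100 of 2408 genes. Their choice by r over the same arrays largely fixed this. The median of the beta-catenin pathway components (-0.014) turned to 0.063 without transgenic replicate 2, and with 1 array left out it ran from -0.055 to 0.063. The cause was not tested. With 1 array left out, the median of the intestinal beta-catenin list ran from -1.31 to -0.18, of the macrophage list from -1.45 to -0.64, of the neutrophil list from -0.19 to 0.66, of the hepatic beta-catenin list from -0.38 to -0.028, of the squamous list from 0.20 to 2.57 and of the partner list from -0.24 to 0.23.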

Other observations

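Ranking by r ignores the size of a change, so the well-expressed genes were also ranked by the root mean square distance between their deviations and those of Lect2, a choice made after the data were seen. The nearest 6 were Grb14, Mt3, Tmed6, Col6a4, Slc18a1 and Esyt3, at distances of 0.64 to 0.84 log2 units, and none was among the 12 genes with the highest r. Grb14, an adaptor protein that restrains the insulin receptor, was at 5.36, 4.10 and 7.78 in IL8 transgenic tumours, against 7.98, 9.30 and 9.23 in wild type tumours. Mt3, a metallothionein, was at 7.35, 4.61 and 8.27, against 8.92, 9.30 and 10.03, the same order as Lect2. Col6a4, a collagen VI chain, was at 4.92, 3.66 and 6.23, against 7.35, 7.97 and 7.51. The groups of all 3 genes did not overlap, with transgenic tumours lower (6.75% of all genes). Their choice by distance from Lect2 largely fixed this. Slc18a1, a vesicular monoamine transporter of endocrine cells, was at 6.85, 3.83 and 7.85, against 8.36, 8.67 and 9.03. None of the 6 passed the test (limma adjusted p = 0.806 for each).

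Pdgfra, the gene of a platelet-derived growth factor receptor found on fibroblasts, was at 9.40, 8.71 and 10.14 in IL8 transgenic tumours, against 10.56, 10.81 and 10.61 in wild type tumours (r = 0.96 with Lect2). The collagen genes Col1a1, Col1a2 and Col3a1 had r of -0.11, 0.44 and 0.47, and of 0.85, 0.87 and 0.81 without transgenic array 2. Over the 10 fibroblast and smooth muscle genes tested, the median r was 0.25, and 0.77 without that array, and the median difference was -0.36, or 0.00024 without transgenic array 1 and -0.69 without transgenic array 2.

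Among lists that bear on the makeup of the tumours, all 11 proliferation genes tested were lower in transgenic tumours, with a median difference of -0.37, which was -0.047 without transgenic array 1. The median of this list relative to the control mean was -0.99, -0.089 and 0.017 on transgenic arrays 1, 2 and 3. Of 10 endothelial genes, 9 were lower, with a median of -0.31. All 9 goblet cell genes were higher, with a median of 0.32, but leaving out transgenic arrays 1, 2 and 3 in turn gave medians of 1.77, -0.039 and -0.041, and leaving out control arrays 1 and 2 gave 0.915 and 0.035. Of 12 genes of absorptive colonocytes 11 were higher, with a median of 0.48, and leaving out transgenic arrays 1 and 3 in turn gave 1.03 and 0.21, and control array 1 gave 0.807. None of these genes passed the test in limma (adjusted p of 0.806 or more).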
